A study of Rattus norvegicus with 6 samples.

Results

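The genes described here encode the nuclear subunits of respiratory complexes II to V. Their members are the known genes whose symbol is Sdha to Sdhd, Cyc1, or begins with Uqcr, Cox4 to Cox8 or Atp5. This rule takes 49 of the 24360 gene rows: 4 of complex II, 10 of complex III, 18 of complex IV and 17 of complex V. RNA was sequenced from the rat line H9c2, a single line of myoblasts from embryonic heart that the labels call embryonic cardiomyocytes. The first group is 3 samples labelled wild type and treated with ginsenoside Rb2, a ginseng saponin (Rb2), and the second is 3 samples labelled wild type and negative control (Ctrl). The protocol text, the same for every sample, gives Rb2 for 48 h ahead of an oxygen and glucose deprivation lasting between 4 and 6 h, followed by reoxygenation for 12 h, and leaves unsaid whether control cells were deprived too. The series concerns heart muscle cells after such injury, and its title names the splicing factor Sf3a2 and splicing of Fscn1.

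Complexes II to V lie in the inner mitochondrial membrane. Complex II (succinate dehydrogenase) passes electrons from succinate to ubiquinone, complex III (the cytochrome bc1 complex) passes them to cytochrome c, complex IV (cytochrome c oxidase) passes them to oxygen, and complex V (ATP synthase) uses the proton gradient to make ATP. Heart muscle is among the tissues richest in these complexes. Most of their subunits are made from nuclear genes, and some subunits of complex IV come as a heart and muscle form and a form found in most tissues.

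No subunit gene passed the test between Rb2 and Ctrl. A gene passed where its adjusted p was under 0.05 in edgeR's quasi-likelihood test, with Benjamini-Hochberg adjustment over all 11551 genes tested. Of the 49 members, 43 had enough counts to be tested, and 0 of the 43 passed in either direction, while 2.70% of all genes tested did (1.90% higher and 0.805% lower in Rb2). At an unadjusted p under 0.05 the same test held 2 members higher in Rb2, against 11.8% of all genes, and 10 members lower, against 8.17% of all genes. Of the 411 other known genes under 1000 bases tested, 25 were higher and 81 lower at this threshold. DESeq2 called 1 member, Uqcrc2, against 5.25% of all genes it tested, and limma-voom called 0, against 2.24%. Nothing says that the replicates came from separate cultures, so every p-value here reflects sample-to-sample spread that could be technical.

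The differences were small as well as not called. The log2 fold change, Rb2 over Ctrl, was under 0.5 in size in 42 of the 43 members, the exception being Uqcrc2. It was also under 0.5 in size in 8848 of all 11551 genes tested, and in 365 of the 411 other known genes under 1000 bases tested. The 95% interval of the fold change lay within 0.5 on the log2 scale, either way, in 36 of the 43 members, against 25.7% of the other known genes. It lay within 1 on the log2 scale, a 2-fold difference, in 41 of 43 members, against 69.6% of the other known genes. The intervals of Uqcrc2 and Atp5pb reached past it. These are intervals of single genes, and they cover the spread between these samples only. The median standard error (SE) was 0.095 in the members and 0.21 in the other known genes, and the part of expression level in this was not tested.

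With TMM scaling 34 of the 43 members had a log2 fold change below 0, against 52.0% of all genes tested, and with scaling by library size alone 20 of the 43 did. The median over the 43 members was -0.08, beside -0.02 over all genes tested. Scaling by library size moved the median of all genes up by 0.113, and the members' median then lay 0.068 below it, about as far below it as with TMM (0.066). By complex the median was -0.05 in complex II, -0.06 in complex III, -0.16 in complex IV and -0.08 in complex V, and all but that of complex IV turned above 0 with library-size scaling. Other known genes shorter than 1000 bases, 411 of those tested, had a median of -0.13 with TMM, and 292 of the 411 lay below 0. The members are short, with a median length of 913 bases among those tested, against 2594.5 bases over all known genes tested.

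**Figure D1:**
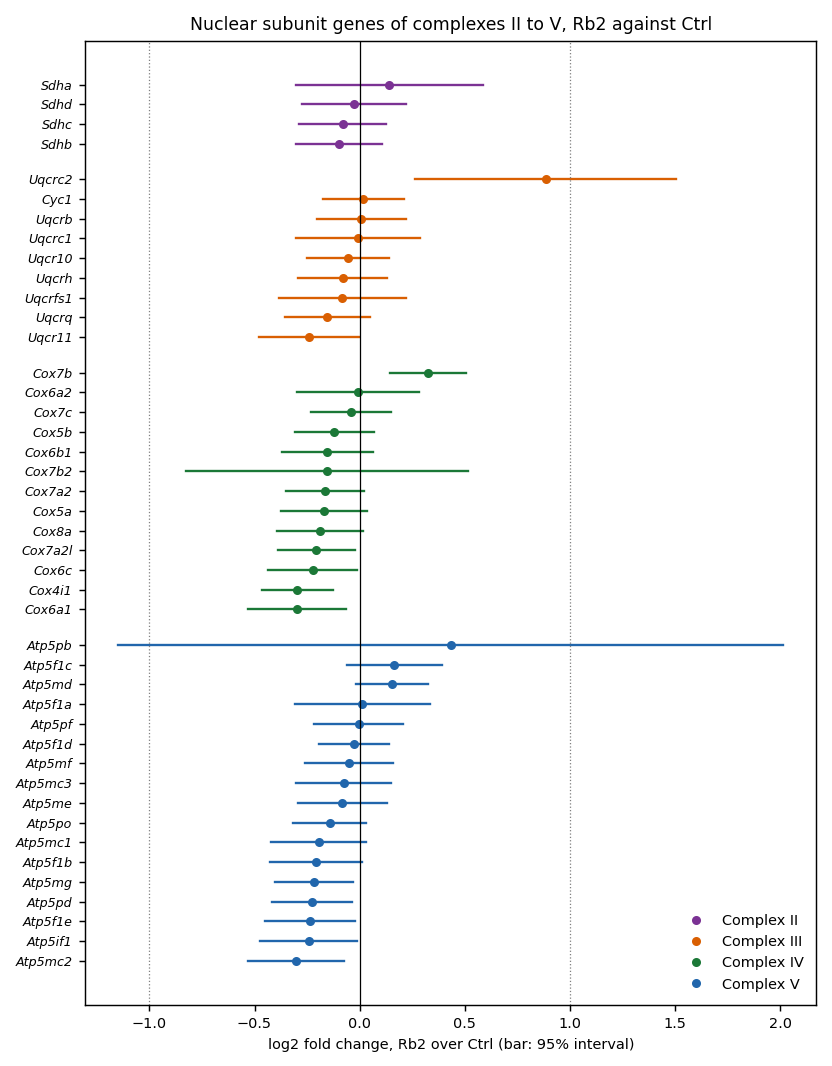
Log2 fold change of each of the 43 tested subunit genes, Rb2 over Ctrl with TMM scaling, grouped by complex, with bars for the 95% interval and dotted lines at a 2-fold difference. Points below 0 are 34 with this scaling and 20 with library-size scaling; the bars of Uqcrc2 and Atp5pb cross a dotted line.

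The values below are CPM (a gene's counts relative to the library's total) scaled by TMM, unless a sentence says that they are per kilobase (kb). Genes are compared with each other per kb of gene length. Whether reads were long is unsettled, so rankings and shares per kb are uncertain. By CPM alone Uqcrq (1313 in Rb2 and 1461 in Ctrl) exceeded Uqcr10 (786 and 816), and Atp5f1b was highest of complex V in Ctrl (1662). Total counts ran between 5193077 and 5570308 in Rb2 and between 5787587 and 8793390 in Ctrl, and 3 counts, the limit that a count of 0 allows, came to between 0.364 and 0.552 CPM, covering counting error only. Ctrl replicate 1 was the deepest library and lay farthest out on the first principal component, which held 42.3% of the variance and separated all Rb2 samples (18.1, 23.8 and 22.6) from all Ctrl samples (-47.0, -18.1 and 0.56). Markers of heart muscle were sparse. Of 11 such genes with a row, 4 reached a mean of 1 CPM in either group, with a summed level between 55.0 and 64.0 CPM in Rb2 and between 56.6 and 75.5 CPM in Ctrl, mostly from Tnnt2 (cardiac troponin T). The myosin gene Myh7, Tnni3, Actn2, Myl2 and Myl7 lay at or near 0, and Tbx5 had no count. Gata4 averaged 6.93 CPM in Rb2 and 6.48 CPM in Ctrl, and Nkx2-5 4.66 and 2.38 CPM. The myosin gene Myh6 averaged 1.55 CPM in Rb2 and 1.09 CPM in Ctrl. These markers were thus mixed, and of the contractile ones Tnnt2 alone was well counted. Summed markers of skeletal myoblasts (5 genes) lay between 37.7 and 43.6 CPM in Rb2 and between 31.5 and 40.7 CPM in Ctrl, and those of mesenchymal cells (5 genes) between 4136 and 4410 CPM in Rb2 and between 4005 and 4264 CPM in Ctrl. Of the epithelial markers Krt8 alone had counts, between 33.9 and 39.9 CPM in Rb2 and between 32.2 and 41.9 CPM in Ctrl, and the 3 leukocyte markers together stayed at or below 0.552 CPM in Rb2 and 0.728 CPM in Ctrl. No marker gene tested passed between the groups.

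In complex II the groups overlapped for every gene. Sdha, the flavoprotein that oxidises succinate, had 68.2, 59.4 and 54.8 CPM in Rb2 replicates 1 to 3 and 38.3, 60.5 and 67.1 CPM in Ctrl replicates 1 to 3. The groups overlapped, and the lowest library of all was Ctrl replicate 1 (a log2 fold change of 0.14 with an SE of 0.20, edgeR adjusted p = 0.735). Sdhb, the iron-sulfur subunit, had 289.6, 275 and 256 CPM in Rb2 and 272, 303 and 304 CPM in Ctrl. Its log2 fold change was -0.10 (SE 0.09) with an edgeR adjusted p of 0.580, again with overlapping groups. Sdhc and Sdhd anchor the enzyme in the membrane. Sdhc had 343, 304 and 302 CPM in Rb2 and 333, 356 and 315 CPM in Ctrl, and it was the highest of the 4 per kb of gene length (254 ± 18.9 in Rb2 and 269 ± 16.5 CPM per kb in Ctrl, SD, n = 3 each). Sdhd averaged 114 ± 7.49 CPM in Rb2 and 117 ± 12.3 CPM in Ctrl.

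In complex III the largest fold change of the 43 members was that of Uqcrc2, one of the pair of large core proteins on the matrix side of the complex. Uqcrc2 had 108, 116 and 100.4 CPM in Rb2 and 34.5, 62.5 and 79.5 CPM in Ctrl. All 3 Rb2 samples lay above all 3 Ctrl samples, the Rb2 samples were close together, and the Ctrl samples spread over more than the gap between the groups. The log2 fold change was 0.88 (SE 0.27, 95% interval between 0.26 and 1.51), and the edgeR adjusted p was 0.123. DESeq2 gave an adjusted p of 0.0137, and over the 19 alternatives the adjusted p ran between 0.00437 and 0.341. Without Ctrl replicate 1, the lowest sample, the log2 fold change was 0.62 and the gene passed in edgeR (adjusted p = 0.00525). It also passed without Ctrl replicate 3, at 1.18 (adjusted p = 0.0347).

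Its partner core protein Uqcrc1 did not share this pattern, averaging 304 ± 9.04 CPM in Rb2 and 306 ± 58.0 CPM in Ctrl, and the difference between the pair was not tested. Uqcr11, a small membrane subunit, had 432, 444 and 409.7 CPM in Rb2 and 584, 484 and 450.4 CPM in Ctrl. The Rb2 samples all lay below the Ctrl samples, by little for Ctrl replicate 3 (log2 fold change -0.24, SE 0.11, edgeR adjusted p = 0.244). Uqcr10, another small subunit and the highest of the complex per kb of gene length, had 819.6, 769 and 769 CPM in Rb2 and 869.5, 841 and 739 CPM in Ctrl, with overlapping groups. Per kb of transcript length Uqcrq stood highest instead, at 2840.4 ± 66.0 in Rb2 and 3178 ± 315 CPM per kb in Ctrl, since most of its counts lie on a transcript shorter than the gene length listed. The electron-carrying subunits Cyc1 (cytochrome c1) and Uqcrfs1 (the Rieske iron-sulfur protein) had log2 fold changes of 0.02 and -0.08. Uqcrb, Uqcrh and Uqcrq, which support the ubiquinone and cytochrome c sites, had 0.01, -0.08 and -0.15. A second row named Uqcrb, a separate gene identifier, had at most 0.178 CPM in any sample and was not tested.

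Complex IV held the 2 smallest p-values of all members. Cox7b, a small membrane subunit, had 445, 464 and 437 CPM in Rb2 and 357, 376 and 342 CPM in Ctrl. All Rb2 samples lay above all Ctrl samples, and the spread within each group was small (449 ± 13.9 in Rb2 and 358 ± 17.1 CPM in Ctrl). The log2 fold change was 0.32 (SE 0.08) with an edgeR adjusted p of 0.0655, and over the 19 alternatives the adjusted p ran between 0.00154 and 0.291. It passed in 7 of them, among them the fit with an offset for gene length (0.48, adjusted p = 0.0283) and the fit without Ctrl replicate 1 (0.34, adjusted p = 0.00663).

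Cox4i1, the form of subunit 4 found in most tissues which ATP can bind to slow the enzyme, lay lower in Rb2. It had 1292, 1255 and 1239 CPM in Rb2 and 1616, 1576 and 1455 CPM in Ctrl. The groups did not overlap, and the lowest Ctrl sample lay well above the highest Rb2 sample. The log2 fold change was -0.30 (SE 0.08) with an edgeR adjusted p of 0.0683, and the adjusted p ran between 0.0115 and 0.290 over the 19 alternatives. It passed without Ctrl replicate 1 (-0.25, adjusted p = 0.0172) and without Ctrl replicate 3 (-0.33, adjusted p = 0.0254), and its log2 fold change was below 0 in every alternative.

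**Figure D2:**
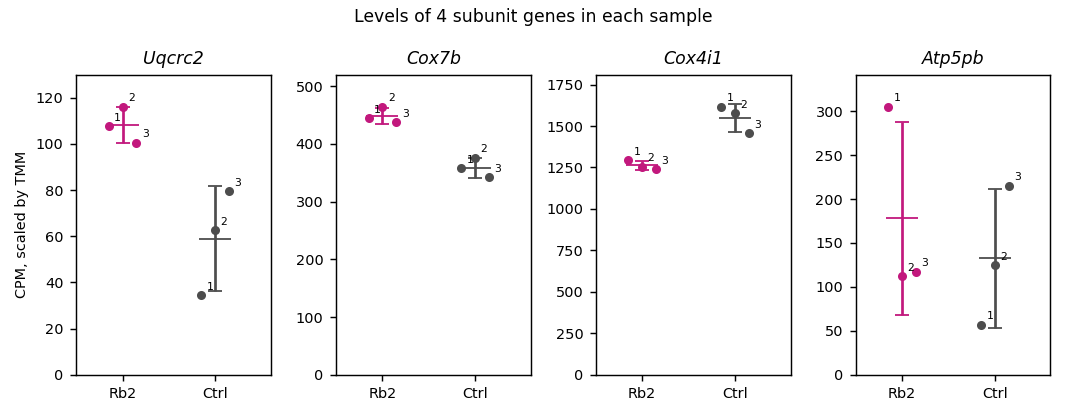
CPM scaled by TMM in each sample (points, numbered by replicate) for Uqcrc2, Cox7b, Cox4i1 and Atp5pb, with the mean and SD of each group of 3, Rb2 left of Ctrl. Uqcrc2 and Cox7b lay higher and Cox4i1 lower in all 3 Rb2 samples, and Atp5pb ran between 57.2 and 305 CPM with both groups spread widely.

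Cox6a1 had 1879, 1803 and 1789 CPM in Rb2 and 2612, 2153 and 1967 CPM in Ctrl. The groups did not overlap, and Ctrl replicate 1 stood highest (log2 fold change -0.30, SE 0.10, edgeR adjusted p = 0.146). Cox7a2l, which takes part in joining complexes III and IV, averaged 665 ± 30.0 CPM in Rb2 and 767 ± 46.2 CPM in Ctrl, with groups that did not overlap (log2 fold change -0.21, edgeR adjusted p = 0.202). Cox8a had the highest level of all members per kb of gene length, 6476 ± 124 in Rb2 and 7376 ± 865 CPM per kb in Ctrl. Its samples had 3261, 3139.9 and 3216 CPM in Rb2 and 4028, 3739.6 and 3185 CPM in Ctrl, and the groups overlapped, Ctrl replicate 3 lying within the Rb2 range. Cox5a and Cox5b, Cox6b1, Cox6c, Cox7a2 and Cox7c lay between -0.22 (Cox6c) and -0.04 (Cox7c) on the log2 scale, all with overlapping groups.

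Of the 3 forms of complex IV known from heart and skeletal muscle, Cox7a1 and Cox8b were barely counted, while Cox6a2 was counted well enough to be tested. Shares here are of the level per kb of transcript length within a pair, so they do not depend on the scaling of a library. Cox6a2, the muscle form, took 4.72%, 4.22% and 4.34% of the Cox6a pair in Rb2 and 3.48%, 3.89% and 3.54% in Ctrl. The 3 Rb2 shares lay above the 3 Ctrl shares (exact two-sided permutation p = 0.1, the smallest that 3 samples against 3 can give), while the level of Cox6a2 itself overlapped between groups, with 83.5, 70.9 and 72.1 CPM in Rb2 and 84.6, 77.9 and 65.2 CPM in Ctrl. Cox7a1, the muscle form of subunit 7a, took 0.184%, 0.228% and 0.201% of its pair with Cox7a2 in Rb2 and 0.183%, 0.151% and 0.101% in Ctrl. The Rb2 shares lay just above the Ctrl shares, on 29 counts in each group. Cox7a1 was not tested, with 1.72 ± 0.16 CPM in Rb2 and 1.42 ± 0.53 CPM in Ctrl.

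Cox8b, the muscle form of subunit 8, had 0, 0 and 0.184 CPM in Rb2 and 0.971, 0.181 and 0.524 CPM in Ctrl, at or near the limit that a count of 0 allows. Cox4i2, known from lung and from low oxygen, had no count in any sample. Cox6b2, known from testis, had 0.175 CPM in Ctrl replicate 3 and no count elsewhere, and a second row named Cox6b1 had none in any sample. Cox7b2, also known from testis, was tested and averaged 3.27 ± 0.29 CPM in Rb2 and 3.66 ± 1.22 CPM in Ctrl, with overlapping groups. How the authors counted reads shared between near-identical gene copies is not given in the sources used here, so low values of one copy are uncertain.

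The proton-carrying c-ring of complex V is made of one protein encoded by Atp5mc1, Atp5mc2 and Atp5mc3. Atp5mc2 had 1412, 1299 and 1293 CPM in Rb2 and 1866, 1639.9 and 1431 CPM in Ctrl. The Rb2 samples all lay below the Ctrl samples, and Ctrl replicate 3 lay close to Rb2 replicate 1 (log2 fold change -0.30, SE 0.10, edgeR adjusted p = 0.137). Atp5mc1 averaged 621 ± 28.4 CPM in Rb2 and 710.4 ± 86.3 CPM in Ctrl, and Atp5mc3 681 ± 33.4 CPM in Rb2 and 718 ± 90.0 CPM in Ctrl, both with overlapping groups.

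Within the trio the shares were steadier than the levels. Atp5mc2 took 51.8%, 52.1% and 51.0% of the summed level per kb of transcript in Rb2 and 54.6%, 54.4% and 54.1% in Ctrl. Atp5mc3 took 22.4%, 22.2% and 22.6% in Rb2 and 20.17%, 19.99% and 20.33% in Ctrl. The mix thus held less Atp5mc2 and more Atp5mc3 in all 3 Rb2 samples, by a few percentage points (exact two-sided permutation p = 0.1 for each, the smallest possible). The gene lengths differ, at 647 bases for Atp5mc2, 763 for Atp5mc1 and 819 for Atp5mc3, and the part of length in this difference was not tested.

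Of the catalytic head, Atp5f1a (alpha) and Atp5f1b (beta) had log2 fold changes of 0.01 and -0.21, Atp5f1c (gamma) 0.17, Atp5f1d (delta) -0.03 and Atp5f1e (epsilon) -0.24. Atp5f1e averaged 669.9 ± 18.2 CPM in Rb2 and 789 ± 90.7 CPM in Ctrl and did not overlap between groups. Atp5f1c had 375, 359 and 355 CPM in Rb2, above 279.7, 352 and 340.0 CPM in Ctrl, with Ctrl replicate 1 far below the other 5 samples (edgeR adjusted p = 0.399). The log2 fold change of Atp5f1c was -0.04 with an offset for gene length. That offset used the listed length of 7422 bases, while a transcript of 1084 bases held 70.9% of its counts in Rb2 and 70.3% in Ctrl. The part of this mismatch in the value was not tested. Atp5if1, which encodes the inhibitor that stops the enzyme from consuming ATP, averaged 614 ± 18.5 CPM in Rb2 and 726 ± 98.2 CPM in Ctrl (log2 fold change -0.24, edgeR adjusted p = 0.231), with overlapping groups.

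Among the membrane and dimer subunits, Atp5md (known as DAPIT) had 1562, 1473 and 1439.95 CPM in Rb2 and 1366, 1389 and 1268 CPM in Ctrl. The Rb2 samples all lay higher, by a small margin (log2 fold change 0.15, SE 0.08, edgeR adjusted p = 0.297). The adjusted p of Atp5md ran between 0.0190 and 0.569 over the alternatives, and it passed in 4 of the 19. Atp5mg had 1224, 1191 and 1155 CPM in Rb2 and 1481, 1407 and 1259 CPM in Ctrl, all Rb2 samples lower (log2 fold change -0.22, edgeR adjusted p = 0.187). Per kb of gene length Atp5md was the highest member of complex V in Rb2 (2836 ± 120.5 CPM per kb) and Atp5mg in Ctrl (2898 ± 237 CPM per kb), but per kb of transcript length Atp5md was the highest in both groups (3457 ± 145 in Rb2 and 3105 ± 148 CPM per kb in Ctrl). Atp5me and Atp5mf lay at -0.08 and -0.05 on the log2 scale.

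The peripheral stalk, which holds the head still while the rotor turns, contained the least steady member. Atp5po averaged 567 ± 10.1 CPM in Rb2 and 626 ± 27.4 CPM in Ctrl, with groups that did not overlap (log2 fold change -0.14, edgeR adjusted p = 0.330). Atp5pd averaged 1004 ± 51.6 CPM in Rb2 and 1173 ± 87.8 CPM in Ctrl, also without overlap (-0.23, edgeR adjusted p = 0.179). Atp5pb had 305, 112 and 117 CPM in Rb2 and 57.2, 125 and 215 CPM in Ctrl. None of the other tested members varied as much within either group: the coefficient of variation (SD over mean) of Atp5pb was 61.7% in Rb2 and 59.9% in Ctrl, and its highest sample held 5.34 times its lowest. The log2 fold change was 0.43 (SE 0.63, edgeR adjusted p = 0.756), and without Rb2 replicate 1 it was -0.20. Atp5pf, the remaining stalk subunit, lay at -0.01 on the log2 scale.

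Groups did not overlap in 13 of the 43 members, against 27.2% of all genes tested. The Rb2 samples lay below in 9 members, against 12.2% of all genes, and above in 4 (Uqcrc2, Cox7b, Atp5md and Atp5f1c), against 15.0% of all genes. The 9 were Uqcr11, Cox4i1, Cox6a1, Cox7a2l, Atp5mc2, Atp5mg, Atp5f1e, Atp5pd and Atp5po. Of the 411 other known genes under 1000 bases, Rb2 lay below in 110 and above in 38.

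Summed over its genes, complex IV came to 13892, 13399 and 13265 CPM in Rb2 and 16731, 15474 and 13812 CPM in Ctrl. The groups overlapped, since Ctrl replicate 3 lay just below Rb2 replicate 1. Complex V came to 13210 ± 598 CPM in Rb2 and 14369.7 ± 720.4 CPM in Ctrl, complex III to 3988 ± 105.5 CPM in Rb2 and 4216 ± 256 CPM in Ctrl, and complex II to 765 ± 53.2 CPM in Rb2 and 799.6 ± 50.0 CPM in Ctrl (SD, n = 3 each). As a share of each library's counts, with no scaling, all members together took 3.25% ± 0.066 in Rb2 and 3.31% ± 0.13 in Ctrl. In bulk samples fewer cells of a type and less RNA per cell cannot be told apart.

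Differences between samples went with gene length, a relation measured within a group for Ctrl replicate 1 only. The mean length of the transcript behind a count was 1244, 1255 and 1252 bases in Rb2 and 1172, 1174 and 1228 bases in Ctrl, lower in all 3 Ctrl samples, so length also moved with the group. Ctrl replicate 1 was the highest of the 6 samples in 24 members, whose median length was 660.5 bases, and the lowest in 10 members, whose median length was 1864 bases. Across the 43 members, which share all libraries, Spearman's rho between length and the log2 ratio of Ctrl replicate 1 over the other 2 Ctrl samples was -0.59. For Rb2 over all 3 Ctrl samples it was 0.39, and for Rb2 over Ctrl replicates 2 and 3 it was 0.028. The median log2 difference of Rb2 over Ctrl replicates 2 and 3 was -0.11 in the 22 members under 1000 bases and -0.08 in the 21 longer ones. The part of Ctrl replicate 1 or of length in the comparison was otherwise not tested.

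**Figure D3:**
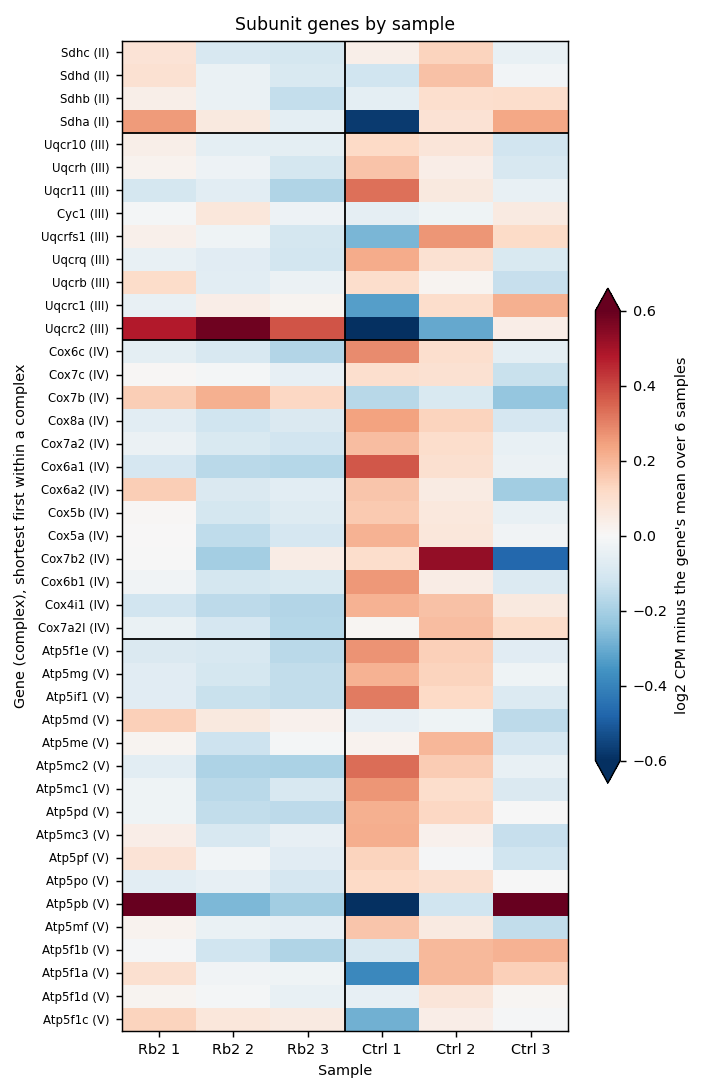
Log2 CPM (TMM scaling) of the 43 tested subunit genes in each sample, less the gene's mean over the 6 samples, with Rb2 columns left of Ctrl columns and genes ordered by length within each complex. Ctrl replicate 1 was highest in 24 genes and lowest in 10, while the 3 Rb2 columns resembled each other; the colour scale ends at 0.6 either way.

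Rb2 samples were closer to each other than Ctrl samples were. The median coefficient of variation of the 43 members was 4.25% in Rb2 and 10.7% in Ctrl, and it was smaller in Rb2 in 41 members. Over all genes tested the medians were 12.1% in Rb2 and 19.0% in Ctrl, and 68.9% of genes varied less in Rb2.

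With an offset for gene length in each library, the members' median was -0.05, beside -0.04 over all genes. Of the members 31 of 43 lay below 0, as did 6303 of all 11551 genes and 230 of the 411 other known genes under 1000 bases. Cox7b was then the 1 member that passed, while 1.53% of all genes did. The median of complex IV moved to -0.04 with this offset, while that of complex V stayed at -0.08. Cox4i1 then had a log2 fold change of -0.32 (edgeR adjusted p = 0.0582). For Cox4i1 the offset used the listed gene length of 1389 bases, while its leading transcripts, of 717 and 731 bases, held most of its counts. The part of this mismatch in the value was not tested.

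**Figure D4:**
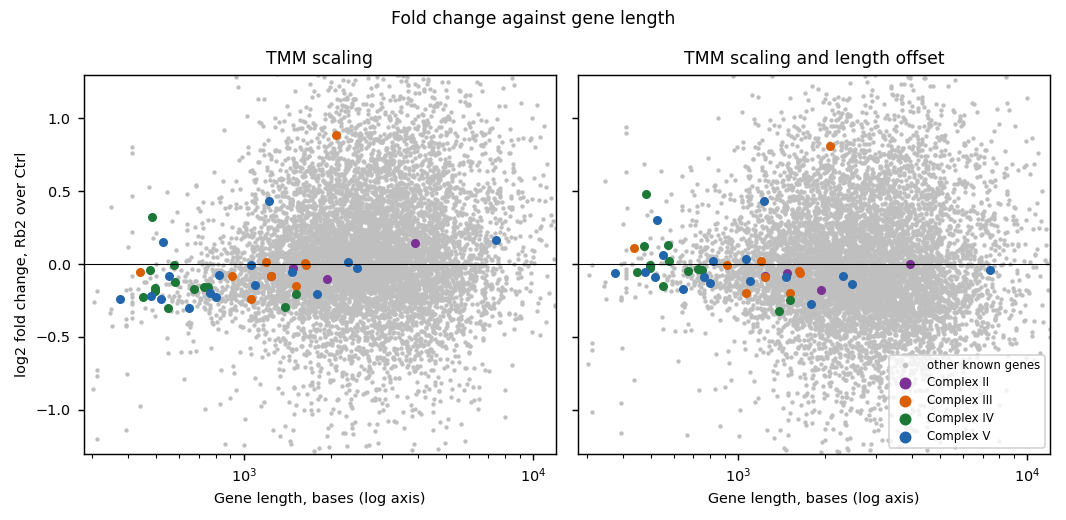
Log2 fold change, Rb2 over Ctrl, against gene length (log axis) for subunit genes by complex (coloured) and other known genes (grey), with TMM scaling (left) and with a length offset added (right); genes beyond 1.3 either way or outside the length range drawn are not shown. Short subunit genes lay mostly below 0 on the left and nearer 0 on the right; with library-size scaling 20 of the 43 lay below 0.

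The transcript table lists 142 transcripts of these genes, 92 of them new models outside the annotation, and 86 were tested. None of the 86 passed in edgeR, as none of all 16679 transcripts did (0% of all tested), and 15 had an unadjusted p under 0.05, against 13.8% of all. DESeq2 called 2, while it called 4.21% of all transcripts it tested. These were Cox7b-201, which carries nearly all of Cox7b (adjusted p = 0.00470), and a new model of Atp5pf (adjusted p = 0.0474). This table holds the same reads as the gene table and is no independent support.

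In 27 of the 43 genes the leading transcript held over 95% of the gene's counts in every sample. In 7 genes its share moved by over 20 percentage points between samples. These were Atp5f1b, Atp5pf, Cox7b2, Sdhb, Cox6b1, Uqcrc1 and Sdhd, and the samples that stood apart differed from gene to gene. For Atp5f1b, the catalytic beta subunit, the annotated transcript of 1773 bases took 88.5%, 85.4% and 86.7% in Rb2 and 21.4%, 86.9% and 80.3% in Ctrl. A new model of 1750 bases took the rest, so in Ctrl replicate 1 alone most counts were assigned to the other model. The summed gene count showed no such jump, with 1535, 1421 and 1361 CPM in Rb2 and 1442, 1763 and 1780.4 CPM in Ctrl.

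The mix of Sdhb also stood apart in Ctrl replicate 1. Its new model of 1929 bases took 67.1%, 57.3% and 62.4% in Rb2 and 93.9%, 67.5% and 64.8% in Ctrl. In Atp5pf the Rb2 samples themselves differed: the annotated transcript of 909 bases took 77.1%, 50.8% and 19.3% in Rb2 and 81.1%, 74.5% and 74.9% in Ctrl, and a new model of 758 bases took most of the rest. The gene level of Atp5pf differed little, with 375, 350.4 and 338 CPM in Rb2 and 389, 352 and 326 CPM in Ctrl. For Cox6b1 the annotated transcript took between 49.0% and 70.3% in Rb2 and between 37.5% and 73.8% in Ctrl, with no single sample apart. For Sdhd the leading model took 59.4%, 57.7% and 68.5% in Rb2 and 53.0%, 47.1% and 54.1% in Ctrl, higher in all 3 Rb2 samples, and no transcript of Sdhd passed the edgeR test. How counts were divided between models that overlap is not given in the sources used here, so transcript shares are uncertain.

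**Figure D5:**
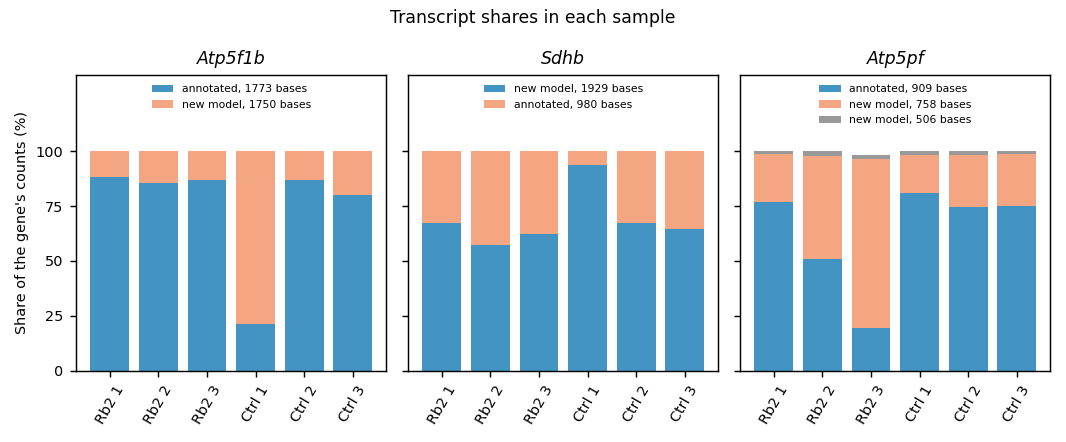
Share of each gene's counts (percent) taken by its tested transcripts in each sample for Atp5f1b, Sdhb and Atp5pf, Rb2 left of Ctrl, with transcript lengths in the legend. The mix of Atp5f1b and Sdhb stood apart in Ctrl replicate 1, and that of Atp5pf differed among the Rb2 samples (77.1%, 50.8% and 19.3% annotated).

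Promoters of these genes are known for sites of a few factors that control respiration genes: NRF1, the ETS family member GABP (encoded by Gabpa and Gabpb1), and YY1. Promoters of 37 tested members could be matched in the RefSeq table of build GRCr8, each from 250 bases before to 50 after the gene's start. The NRF1 letters (GCGCA, then any base, then GCGC), on either strand, stood in 7 of the 37 (18.9%), against 4.71% of all 27457 promoters in the table and 6.09% of those of coding genes. The ETS letters CCGGAAG stood in 14 (37.8%), against 9.22% of all and 11.2% of coding promoters, and the YY1 letters AAGATGGC in 7 (18.9%), against 3.44% of all and 3.92% of coding promoters. Of the 7 NRF1 matches 5 were in complex V, 1 each in complexes II and III and 0 in complex IV. The members' promoters were also richer in G and C, with a median of 55.7% against 52.3%, and 15 of the 37 held none of the 3 motifs. A match is a run of letters and was not shown to be bound.

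The 100 bases before the start are shown for the genes with the smallest p in each direction in complexes III and IV that have a window, and for Atp5mc2, so that their motifs can be compared. Uqcrc2 lies on the plus strand (chr1:184599140-184599239), Cox7b on the plus strand (chrX:75148936-75149035), Cox4i1 on the plus strand (chr19:65630283-65630382) and Atp5mc2 on the minus strand (chr7:135678219-135678318). Sequences run 5′ to 3′ on the gene's strand, and capitals mark a motif on either strand: the reverse complement of the ETS letters in Uqcrc2 and the NRF1 letters in Atp5mc2. Outside the windows shown but within the promoters counted, Cox4i1 held the ETS letters at 2 places after its start and Uqcrc2 held them a second time upstream. Cox7b held none of the 3 motifs anywhere in its promoter.
Uqcrc2: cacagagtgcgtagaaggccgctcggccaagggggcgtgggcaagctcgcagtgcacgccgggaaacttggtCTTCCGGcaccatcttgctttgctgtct
Cox7b: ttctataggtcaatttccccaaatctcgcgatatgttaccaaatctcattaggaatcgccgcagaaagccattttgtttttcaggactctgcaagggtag
Cox4i1: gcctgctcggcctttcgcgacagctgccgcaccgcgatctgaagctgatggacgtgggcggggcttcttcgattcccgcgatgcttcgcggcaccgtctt
Atp5mc2: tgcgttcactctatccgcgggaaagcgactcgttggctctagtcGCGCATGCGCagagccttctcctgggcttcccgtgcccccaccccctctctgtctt

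The factors themselves did not pass. Of 16 regulators of nuclear genes for respiration, 13 were tested and 0 passed in edgeR, 3 had an unadjusted p under 0.05, all higher in Rb2, against 11.8% of all genes, and the median log2 fold change was 0.31, or 0.21 with the length offset. Gabpa had 3.03, 3.47 and 3.31 CPM in Rb2 and 1.94, 0.904 and 1.92 CPM in Ctrl. The groups did not overlap, at low levels (log2 fold change 1.00, SE 0.33, edgeR adjusted p = 0.131). Nrf1 had a log2 fold change of -0.12 and Gabpb1 of 0.38, both with overlapping groups. Yy1 had 0.80 without overlap, also at low levels (edgeR adjusted p = 0.239). Genes of this list are long, with a median of 2851 bases.

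Assembly factors, which build the complexes and insert their copper, heme and iron, held 2 genes that rose and none that fell in edgeR among 37 tested of 48 listed. Over all genes 1.90% passed higher and 0.805% lower. At an unadjusted p under 0.05 there were 4 higher and 1 lower of the 37, against 11.8% and 8.17% of all genes. Sdhaf3, an assembly factor of complex II, had 14.6, 12.3 and 14.2 CPM in Rb2 and 6.31, 7.77 and 7.69 CPM in Ctrl. It rose in Rb2, with no overlap between groups (log2 fold change 0.92, SE 0.19, edgeR adjusted p = 0.0429). Hccs, which attaches heme to cytochromes c and c1, had 22.6, 20.3 and 21.7 CPM in Rb2 and 10.6, 12.1 and 14.7 CPM in Ctrl. It rose likewise (log2 fold change 0.80, SE 0.17, edgeR adjusted p = 0.0474). Both calls stood near the threshold: Sdhaf3 passed in 12 of 19 alternatives and Hccs in 10, and both lost their call without any 1 of the 3 Rb2 samples or Ctrl replicate 2 (adjusted p between 0.143 and 0.199). With the length offset Hccs had an adjusted p of 0.0593. The median of the list was 0.02, near that of all genes.

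Subunits of complexes III to V made in the mitochondrion had 5 of 6 genes tested and 0 passed in edgeR. Mt-co1, the catalytic core of complex IV, had 1095, 917 and 717 CPM in Rb2 and 1559, 1178 and 1065 CPM in Ctrl. Rb2 replicate 1 lay above Ctrl replicate 3, so the groups overlapped (log2 fold change -0.48, SE 0.18, edgeR adjusted p = 0.199, the 1 gene of this list with an unadjusted p under 0.05). Mt-atp8 had no count in any sample.

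Of 15 electron carrier genes, mostly for making ubiquinone, 10 were tested and 0 passed in edgeR. At an unadjusted p under 0.05 there were 1 higher and 1 lower, against 11.8% and 8.17% of all genes. Coq10b, which binds ubiquinone, had 23.1, 20.1 and 17.5 CPM in Rb2 and 9.22, 13.6 and 14.5 CPM in Ctrl, without overlap (log2 fold change 0.71, SE 0.21, edgeR adjusted p = 0.0986). Cycs, the gene of cytochrome c itself, averaged 0.061 CPM in Rb2 and 0 in Ctrl, at the limit of detection. Cytochrome c has many processed copies in rodent genomes, so this row is uncertain. Of 21 listed partners and carriers of complexes III to V outside the rule, 11 were tested and 1 fell, against 0.805% of all genes. This was Higd1a (-0.48, edgeR adjusted p = 0.0364). Higd1a passed in 14 of 19 alternatives and lost its call without Ctrl replicate 2 or any 1 of the 3 Rb2 samples. Ndufa4, now counted with complex IV, lay at 0.11.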

How the data were processed

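The deposited gene and transcript tables hold whole-number counts that the authors made per feature, with feature lengths, and further deposited tables give CPM relative to the column total, not scaled by length. Per the submitters' processing notes, HISAT2, DESeq2 and mm10 (a mouse build) were involved in roles not given, while known genes carry rat identifiers, so no coordinates are given from the files. The labels describe a short-read kit and new models carry identifiers that begin with ONT, so whether reads were long is unsettled. Another 18 per-sample columns in each file belong to no sample listed here and were left unused. The 15 known gene rows naming no gene could not be members, and they were not removed before the fit.

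Counts were fitted with edgeR 4.0.16 in R 4.3.3 (TMM, filterByExpr, robust quasi-likelihood, group as the only term), on all genes and, separately, on all transcripts, after tests on simulated data. The SE is the fold change over the root of F, and 95% intervals use the fit's degrees of freedom. The length offset is a loess (span 0.5) fitted per library to log-ratios along log2 gene length. Levels per kb are CPM over gene length; the shares within paralogs use transcript lengths, a choice made after seeing the data. DESeq2 1.42.0, limma 3.58.1 (voom, and log2 of deposited CPM plus 1 or 0.1), other scalings, filters, thresholds, a replicate block and samples left out were alternatives. No 2 replicates were alike within sampling noise (lowest chi-square per degree of freedom 1.71). Members and lists were chosen with earlier results of these data known. Sample values are given for members with the smallest p in each direction and the highest level per kb in each complex, for paralogs, and for others chosen after their values were seen (Cox7a2l, Atp5pb, Atp5f1b, Atp5f1c, Atp5pf, Sdhd, Cox6b1, Uqcrq). Of 47 member symbols 39 matched a RefSeq promoter by symbol and 1 by synonym.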

Additional observations from a re-analysis of the deposited data

How the results depend on the processing

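Calls among the 43 members depended on the setting. The number higher in Rb2, 0 as reported, was 2 with library size alone (Atp5md, Cox7b). It was also 2, the same genes, with limma on the authors' CPM (plus 1 or plus 0.1, as log2). It was 1 without a filter (Cox7b), 1 in DESeq2 (Uqcrc2) and 1 with the length offset (Cox7b). Of all genes, those called either way were 4.7% with library size alone, and 5.2% and 4.84% with CPM plus 1 and plus 0.1. They were 2.34% without a filter, 5.25% in DESeq2 and 1.53% with the length offset. With that offset and no Ctrl replicate 1 library, a setting chosen after seeing the data, 3 members were higher (Atp5md, Cox7b, Uqcrc2). There 9.11% of all genes were called either way. The number lower, 0 as reported, was 4 in that last setting (Atp5f1b, Atp5f1c, Cox4i1, Cox7a2l), against 621 of all 11901 genes tested there. In it Atp5f1c was reversed to -0.24. The offset took Atp5f1c at its listed 7422 bases, though most of its counts lie on a transcript of 1084 bases. With single samples left out, between 0 and 2 members were higher and between 0 and 4 lower. Without Ctrl replicate 1 these were Cox7b and Uqcrc2 higher and Atp5f1b, Cox4i1 and Cox7a2l lower; without Ctrl replicate 3, Uqcrc2 higher and Atp5mc2, Cox4i1, Cox6a1 and Cox8a lower; without any other sample, none. Over all genes, 312 (2.7%) as reported became 896 (7.53%) without Ctrl replicate 1 and 644 (5.36%) without Ctrl replicate 3. Without any other sample the number lay between 3 (0.0247%) and 39 (0.32%). At this depth Cox4i2, Cox6b2, Cox7a1 and Cox8b could not be compared.

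With library size, CPM plus 1 and CPM plus 0.1, the median log2 fold change was 0.058, 0.059 and 0.059 in complex II, 0.060, 0.061 and 0.061 in complex III, -0.050, -0.048 and -0.048 in complex IV, and 0.032, 0.035 and 0.035 in complex V. Over samples left out it ran between -0.11 and 0.017 in complex II, -0.086 and 0.014 in III, -0.21 and -0.093 in IV, and -0.15 and -0.043 in V. The median of complex IV was -0.037 with the length offset and -0.011 with that offset and no Ctrl replicate 1 library, where complex II had -0.17. DESeq2 called 2 member transcripts. The cause of these moves was not tested. For 23 members followed through the settings, 410 of 436 values stayed uncalled, 25 passed newly and 1 passed with its direction reversed. Values that stayed uncalled could also change direction. Cox6a2 kept its sign in 9 of 19 alternatives, and Atp5mc3 and Uqcr10 each in 13 of 19.

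No pairing by replicate number was seen: same-numbered samples had deviations from the group means correlated at -0.067, -0.061 and -0.0067. With 3 samples a group this check cannot exclude pairing. With the replicate number as a block, 0 members were called either way, and 33 genes in all (12 higher and 21 lower); adjusted p was 0.0909 for Sdhaf3, 0.0909 for Hccs and 0.0715 for Higd1a, which then were not called. In the check of replicate numbers, 0 of the 3 Rb2 samples correlated best with the Ctrl sample of their own number.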
